A study of Drosophila melanogaster with 11 samples.

Results

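The 3 yolk protein genes of Drosophila melanogaster, Yp1, Yp2 and Yp3, and yl (yolkless), which encodes the receptor that takes yolk proteins up, were followed from the stage 14 oocyte into the embryo and the unfertilized egg. They were found by gene symbol on the array, 4 genes of 6793 named ones, and each was present as 2 spots. Yp1, Yp2 and Yp3 lay below the median gene on all 11 arrays. yl was low on all 7 wild-type arrays and close to or above the median gene on all 4 smg arrays.

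Yolk proteins are made by the fat body and by the somatic follicle cells of the ovary, and not by the germ line. They are secreted, bound at the oocyte surface by Yolkless, a member of the LDL receptor family, carried inwards by clathrin-coated vesicles and stored in yolk granules for the embryo. yl is transcribed in the germ line, so its mRNA is laid down in the egg by the mother. smg (smaug) encodes an RNA-binding protein of the egg that represses and destabilises many maternal transcripts after egg activation.

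Each array carried RNA of 1 sample in 1 channel and RNA of w1118 (wild-type) stage 14 oocytes in the other, and no oocyte sample was hybridised against that reference. The groups were w1118 embryos aged 2 to 3 h (4 arrays), SMG material of the same age (4 arrays) and w1118 unfertilized eggs aged 4 to 6 h (3 arrays). The labels give no allele, no driver and no number of animals pooled for SMG. One of the 4 smg arrays, replicate 4, has the source name SMGoverDf in place of SMG. At 2 to 3 h the dyes were coupled indirectly, Alexa Fluor 647 to the embryonic cDNA and Alexa Fluor 555 to that of the oocytes, from 60 µg of RNA each. For unfertilized eggs labelling was direct and the colours were exchanged, with Cy3 for the eggs and Cy5 for the oocytes. Nothing in the labels says that arrays of 1 group came from separate collections, so each p-value reflects array-to-array spread alone, which may be technical.

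Values are log2 ratios of sample to oocyte, averaged over the 2 spots of a gene, minus the median of all genes on that array. A value of 0 is therefore the level of the median gene, and -1 is a halved ratio relative to it. The direction is not stated in the sources used here. It was read as sample over oocyte because the titles name them in that order. The gap gene Kr, transcribed by the embryo itself, lay between 3.17 and 4.82 wherever a wild-type embryo array measured it (3 of 4), which bears on the 2 to 3 h arrays alone. As deposited, wild-type embryo replicate 1 and smg replicate 1 had medians of -4.01 and -4.43 and values for 48.9% and 51.1% of spots. The other 9 arrays had medians between -0.37 and 0.16 and values for 75.0% to 99.1% of spots. By the serial numbers that end their titles, the 2 to 3 h arrays were split here into 2 sets of slides. Replicates 1 and 2 of both genotypes have the lower numbers and are called earlier, and replicates 3 and 4 are called later. The labels give no date, set or batch, so the split is an assumption of this report. Across genes, which are not independent replicates, smg replicate 3 correlated at r = -0.51 with smg replicate 1, at -0.34 with smg replicate 2 and at 0.76 with smg replicate 4. Kr, however, was at 1.47 on smg replicate 3, with the same sign as on smg replicates 2 (1.71) and 4 (2.24). Because of the negative correlations, results in smg are also given after smg replicate 3 was multiplied by -1, which would part its Kr value from those of replicates 2 and 4. The smg gene itself was between -2.60 and -0.77 in wild-type embryos, between -2.66 and 2.02 in smg and between -0.39 and 0.17 in unfertilized eggs, and it does not check the genotype, since the affected stretch of the transcript is not described.

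Yp1 (CG2985) showed the lowest ratios of the yolk protein genes. On wild-type embryo replicates 1 to 4 its log2 ratio was -3.62, -4.23, -3.61 and -3.22. On smg replicates 1 to 4 it was -3.39, -3.33, -3.01 and -4.17, and on the unfertilized-egg arrays it was -2.50, -3.35 and -3.06. The 3 groups overlapped, and all 11 values were below 0. By rank, Yp1 was the lowest of 6777 genes on wild-type embryo replicate 3 and the lowest of 6748 on smg replicate 4, and on no array did it stand above the 23rd place from the bottom. On smg replicate 3, whose profile ran against those of the earlier smg slides, it was the 2nd lowest of 6319 genes.

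Yp3 (CG11129) was lower than the median gene on every array as well. It stood at -2.34, -2.71, -1.996 and -2.51 in wild-type embryos, at -1.06, -1.75, -1.75 and -2.71 in smg, and at -1.24, -2.21 and -1.26 in unfertilized eggs. The smg values spread most widely, from the highest of all 11 to the lowest. The highest, on smg replicate 1, came from 2 spots that differed by 2.29, one at -2.20 and the other at 0.09. Elsewhere the spots of each of the 4 genes lay within 1 log2 unit of each other.

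Yp2 (CG2979), the neighbour of Yp1 in the reference annotation, lay nearest to the median gene of the 3 on most arrays. Its values in wild-type embryos were -0.15, -1.77, -1.26 and -0.86. In smg they were -0.64, -0.95, -1.20 and -1.80, and they were -1.17, -1.99 and -1.37 in unfertilized eggs. The 2 arrays with low medians gave the 2 values nearest to 0. The order Yp1 lowest, then Yp3, then Yp2 held on 10 of 11 arrays. On unfertilized replicate 3 Yp2 was below Yp3 by 0.11, and the 2 genes did not differ beyond their spread in unfertilized eggs (difference Yp3 minus Yp2 -0.06 ± 0.17, SD, n = 3). In wild-type embryos Yp3 was below Yp2 by more, with differences of Yp3 minus Yp2 from -2.20 to -0.74, and in smg they ran from -0.92 to -0.42. The span between the lowest and the highest yolk protein gene of an array was 2.66 ± 0.54 (SD, n = 4) in wild-type embryos, 2.33 ± 0.39 (SD, n = 4) in smg and 1.49 ± 0.26 (SD, n = 3) in unfertilized eggs. The 3 genes are paralogs, and cross-hybridisation between their spots was not measured. Yp1 also overlaps an antisense RNA gene (asRNA:CR45601) in the annotation, and which strand its spots detect is not stated.

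yl (CG1372) was the gene whose level parted the genotypes. In wild-type embryos it stood at -2.58, -2.38, -1.41 and -1.51, and in unfertilized eggs at -1.48, -1.37 and -1.44. In smg it stood at -0.16, -0.03, 1.26 and 0.83. All 4 smg values lay above all 7 wild-type values, as they did for 5.60% of the 3324 genes measured on all 11 arrays. Of the 3685 genes measured on these 7 arrays, 20.4% were below the median gene on each, as yl was. By rank yl was within the lowest 2.85% of genes on every wild-type array, and on the smg arrays it was at the 43.8th, 47.7th, 77.2th and 84.0th percentile. As deposited, smg replicates 3 and 4 had medians of -0.03 and 0.13 over all their genes. Over the genes measured on all 11 arrays these were 0.86 and 0.59, so the height of yl above the median gene there depends on the centring. With centring on that common set yl in smg averaged 0.22. The 2 spots of yl never differed by more than 0.38.

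**Figure D1:**
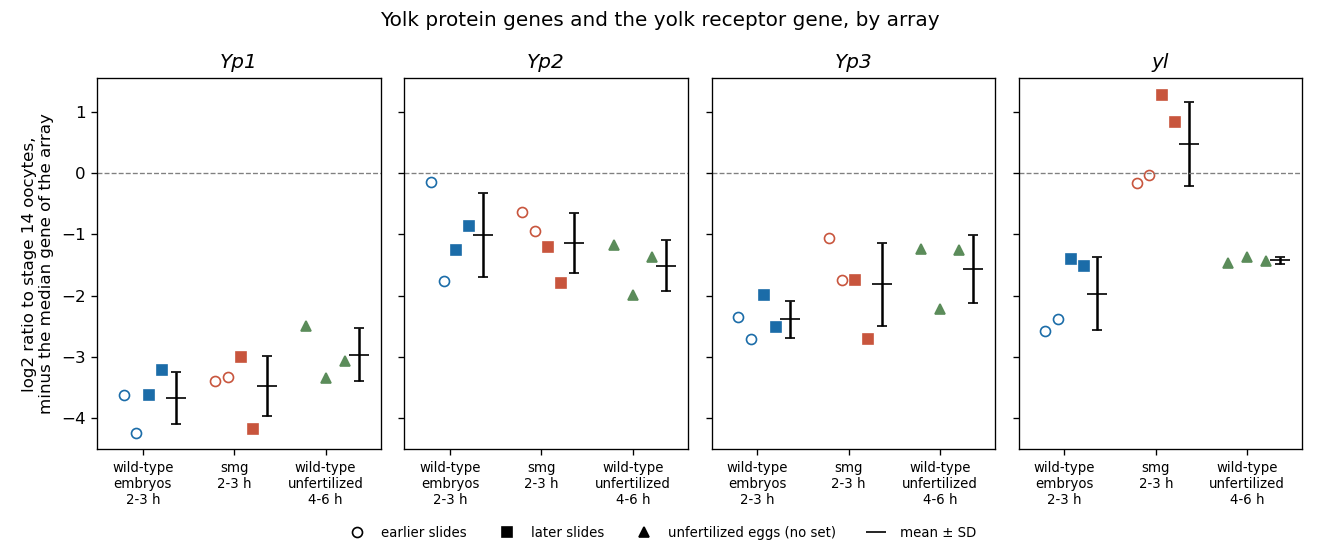
Log2 ratio to stage 14 oocytes, minus the median gene of the array, for Yp1, Yp2, Yp3 and yl. Each point is 1 array, open circles are the earlier and squares the later slides, triangles are unfertilized eggs, and bars are mean ± SD (n = 4, 4 and 3); the dashed line is the median gene. The yolk protein genes are below 0 on all 11 arrays, while yl is below -1.3 on the 7 wild-type arrays and between -0.16 and 1.26 on the smg arrays.

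The comparison with oocytes asks which transcripts are lower after the oocyte stage. That the yolk protein genes lie low in every group was known when the set was chosen. Their p-values against oocytes, here and below, are therefore not independent support for the fall. In wild-type embryos Yp1 (-3.67, SE 0.27), Yp3 (-2.39, SE 0.28) and yl (-1.97, SE 0.31) fell. In linear terms these are ratios 12.8, 5.24 and 3.91 times lower than that of the median gene. Yp2 was at -1.01 (SE 0.30, 95% interval -1.66 to -0.35) and did not pass the test (limma adjusted p = 0.106). The adjusted p of the 3 genes that fell was 4.54e-05, 9.54e-04 and 0.00653 by limma. Among all 6328 genes tested 2.48% were called lower. Without wild-type embryo replicate 1 yl was at -1.76 (limma adjusted p = 0.0551) and without replicate 2 at -1.83 (limma adjusted p = 0.0676), neither of which passed. It passed without both low-median arrays (-1.76, limma adjusted p = 0.0390) and within the later slides, which hold neither replicate (-1.46, limma adjusted p = 0.0198). Yp2 passed when the slide set was a block in the model (-1.01, limma adjusted p = 0.0397) and when the wild-type arrays were fitted alone (limma adjusted p = 0.0306). These 2 fits called 528 and 750 genes, against 209 in the main fit. As deposited, without centring, the 2 low-median arrays widen the spread and limma called none of the 6328 genes (139 at an unadjusted p under 0.05). Yp1 was then at -4.67, Yp3 at -3.39 and yl at -2.97 (limma adjusted p = 0.834 for each).

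All 3 yolk protein genes were below the median gene on all 4 smg arrays, as were 3.31% of genes, a trait already known when they were chosen. In smg against oocytes Yp1 (-3.47, SE 0.27, limma adjusted p = 1.17e-04) and Yp3 (-1.82, SE 0.29, limma adjusted p = 0.0424) fell, where 0.0654% of 6112 genes tested were called lower. Yp1 had the lowest fitted value of all 6112 genes, Yp3 the 7th lowest and Yp2 the 41st lowest. Yp2 was at -1.15 (SE 0.30, limma adjusted p = 0.257). yl was at 0.47 (SE 0.32, limma adjusted p = 0.621), with a 95% interval from -0.21 to 1.16. The median change of all genes in this comparison was 0.13. Yp3 lost its call in 11 of 21 other ways of processing, among them the omission of any 1 wild-type embryo array or of smg replicate 2 or 4 (limma adjusted p from 0.0924 to 0.502). With the sign of smg replicate 3 turned, Yp1 was at -1.97, Yp3 at -0.94 and yl at -0.16, and limma called 0 genes (492 at an unadjusted p under 0.05). Within the earlier slides yl was at -0.10 (limma adjusted p = 0.878) and within the later slides at 1.05 (limma adjusted p = 0.0196). The fit of the later slides called 1593 genes, against 5 in the main fit.

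In unfertilized eggs against oocytes all 4 genes fell, with 10% of 6782 genes tested called lower. Yp1 was at -2.97 (SE 0.19, limma adjusted p = 3.19e-07), Yp3 at -1.57 (SE 0.21, limma adjusted p = 1.10e-04), Yp2 at -1.51 (SE 0.19, limma adjusted p = 8.71e-05) and yl at -1.43 (SE 0.17, limma adjusted p = 4.59e-05). These arrays carried the dyes the other way round, so the yolk protein genes read low in either dye orientation, provided that the ratio was formed as sample over oocyte on both kinds of array. The 3 values of yl spanned only 0.10. In a fit that shared its spread with the other 8 arrays, yl had a limma adjusted p of 0.0504, and the 3 yolk protein genes passed in that fit too. In RNA of whole eggs and embryos, fewer cells or eggs that hold a transcript and less of it in each cannot be told apart.

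Levels at the same age were then set against each other between genotypes. Here yl was higher in smg by 2.44 (SE 0.45, 95% interval 1.47 to 3.42, limma adjusted p = 0.0491), where 0.190% of 5791 genes tested were called higher. All 4 smg arrays were above all 4 wild-type embryo arrays, as they were for 8.81% of the 3393 genes measured on all 8. The yolk protein genes did not pass the test. The difference was 0.20 for Yp1 (95% interval -0.65 to 1.05, limma adjusted p = 0.980), -0.14 for Yp2 (95% interval -1.08 to 0.80, limma adjusted p = 0.993) and 0.57 for Yp3 (95% interval -0.32 to 1.46, limma adjusted p = 0.753). The sign of these differences was not stable: with quantile normalization Yp1 was at -0.36 and Yp3 at -0.46, with centring on the genes measured on all 11 arrays Yp1 was at -0.19, and within the earlier slides Yp2 was at 0.17. The median difference of all genes was 0.17.

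The size of the yl difference was alike in both sets of slides, 2.38 in the earlier and 2.50 in the later. Between the sets the level itself moved: the 2 earlier and 2 later wild-type embryo arrays averaged -2.48 and -1.46, and the smg arrays -0.10 and 1.05. When the slide set was a block in the model, the adjusted p of yl by limma was 9.75e-04. That fit called 235 genes, against 16 without the block, and the split into sets is an assumption of this report. The adjusted p without the block was near the threshold. Over 20 other ways of processing the difference stayed between 1.81 and 2.65, and it passed the test in 7 of 20. Among the omissions of 1 array it passed without smg replicate 1 (2.65, limma adjusted p = 0.0161) and without smg replicate 3 (2.18, limma adjusted p = 0.0387). It did not pass without any 1 of the other 6 arrays at 2 to 3 h (limma adjusted p from 0.0900 to 0.255). With the sign of smg replicate 3 turned it was 1.81 (limma adjusted p = 0.452).

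**Figure D2:**
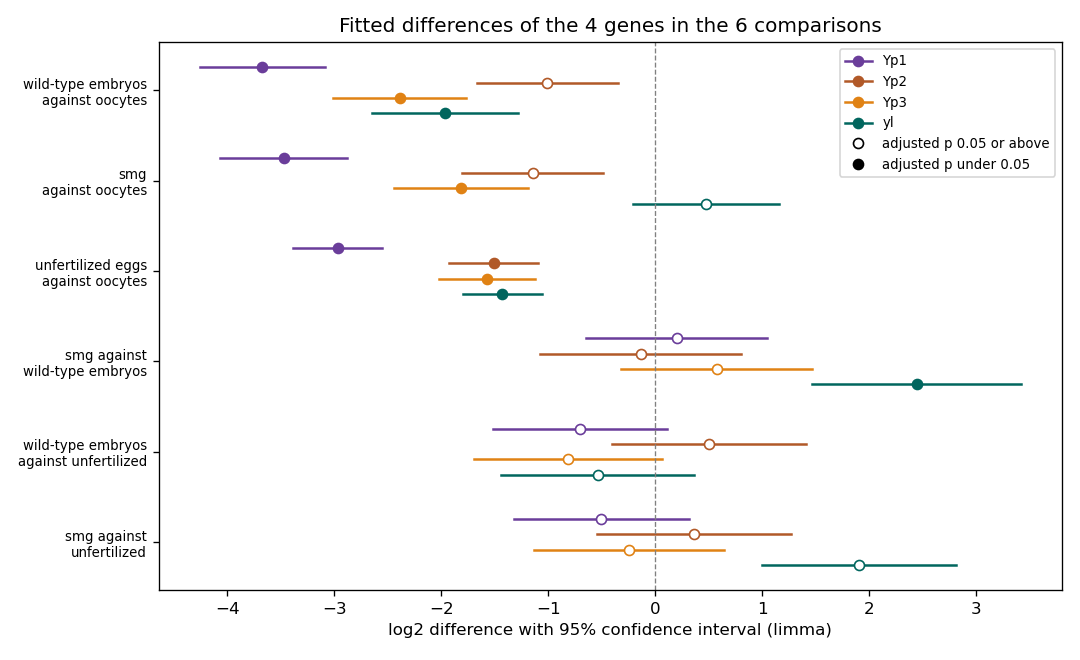
Fitted log2 differences of Yp1, Yp2, Yp3 and yl in the 6 comparisons, with 95% confidence intervals from limma; filled points have an adjusted p under 0.05 over all genes tested. The yolk protein genes lie below 0 in the 3 comparisons with oocytes, and the interval of yl spans 0 in smg, with a difference from wild-type embryos of 2.44.

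Whether the receptor gene and the yolk protein genes differ in their response to genotype was tested on the difference between 2 genes within each array, in which the centring of the array cancels. These pairs were set against each other with earlier results of the same arrays known, so the p-values are not independent support for the contrast. yl minus Yp1 was 1.04, 1.86, 2.21 and 1.71 on the wild-type embryo arrays and 3.23, 3.29, 4.27 and 4.999 on the smg arrays. The groups did not overlap, and the means differed by 2.24 (two-sided exact permutation test, p = 0.0286, the smallest that 4 against 4 arrays allow, adjusted p = 0.0429 over 3 tests). yl minus Yp2 was -2.43, -0.61, -0.15 and -0.65 in wild-type embryos, against 0.47, 0.91, 2.47 and 2.62 in smg, a difference of 2.58 with the same exact p and adjusted p. In other words, yl was below Yp2 on all 4 wild-type embryo arrays and above it on all 4 smg arrays, on the scale of ratios to the oocyte. yl alone already parted the 2 groups, as did 8.81% of the 3393 genes measured on all 8 arrays. How many genes would part them after subtraction of a yolk protein gene was not counted.

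yl minus Yp3 was -0.23, 0.33, 0.59 and 0.998 in wild-type embryos, against 0.89, 1.72, 3.02 and 3.54 in smg. Here 1 wild-type array lay above 1 smg array, and the difference of 1.87 did not pass (two-sided exact permutation test, p = 0.0571, adjusted p = 0.0571). Within the earlier slides the 3 differences were 1.81, 2.21 and 1.25 for Yp1, Yp2 and Yp3, and within the later slides 2.68, 2.95 and 2.48. Each set holds 2 arrays of each genotype, which allows no exact p below 0.333. With genotypes permuted only within the sets of slides, a test added after the values were seen, the exact p was 0.0556 for all 3 genes, the smallest that 36 regroupings allow, so no call can be made there. Without wild-type embryo replicate 1 the tests for Yp1 and Yp2 gave an adjusted exact p of 0.0857. When smg replicate 3 was turned in sign, the differences were 0.11, 1.35 and 0.36.

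In unfertilized eggs the same within-array differences overlapped those of wild-type embryos for each yolk protein gene. yl minus Yp1 was 1.02, 1.98 and 1.62, yl minus Yp2 was -0.30, 0.61 and -0.07, and yl minus Yp3 was -0.23, 0.84 and -0.18. The unfertilized values lay under the lowest smg value for Yp1 and Yp3 and overlapped the smg values for Yp2.

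**Figure D3:**
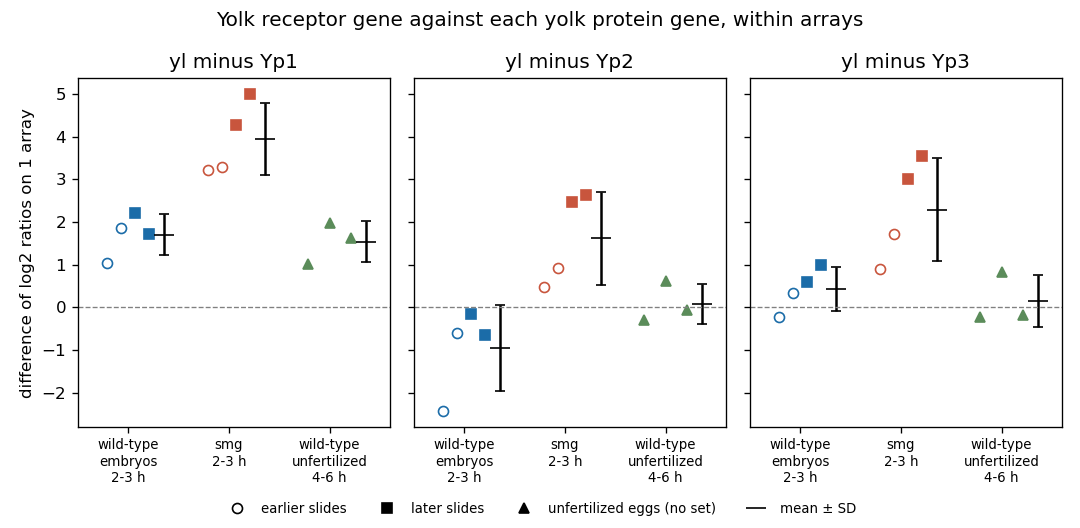
Difference of log2 ratios between yl and each yolk protein gene on the same array, by group; points are arrays (open circles earlier slides, squares later slides, triangles unfertilized eggs) and bars are mean ± SD. For Yp1 and Yp2 the 4 smg arrays lie above all 4 wild-type embryo arrays, and for Yp3 the groups overlap at 0.89 and 0.998.

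The comparisons with unfertilized eggs ask what fertilization and genotype change, but dye orientation, labelling method and age differ with them and cannot be told apart. Between wild-type embryos and unfertilized eggs none of the 4 genes passed the test by limma. The differences were -0.70 for Yp1, 0.50 for Yp2, -0.82 for Yp3 and -0.54 for yl (adjusted p = 0.999 for each; unadjusted p 0.0843, 0.254, 0.0672 and 0.222). The 95% intervals ran from -1.52 to 0.11, from -0.40 to 1.41, from -1.70 to 0.07 and from -1.44 to 0.36. Of 6322 genes tested 0.301% were called. Between smg and unfertilized eggs yl was higher by 1.90 (95% interval 0.996 to 2.81) without passing (limma adjusted p = 0.0802), although all 4 smg arrays were above all 3 unfertilized arrays, as for 15.4% of the 3510 genes measured on these 7. It passed after quantile normalization (1.80, limma adjusted p = 0.00652) and without smg replicate 1 (2.12, limma adjusted p = 0.0144) or smg replicate 2 (2.07, limma adjusted p = 0.0496). Without smg replicate 1 limma called 265 genes, against 18 in the main fit. The yolk protein genes were at -0.51, 0.36 and -0.24 for Yp1, Yp2 and Yp3, with limma adjusted p between 0.696 and 0.899, and 0.295% of 6107 genes were called. With quantile normalization Yp2 was at -0.06 in this comparison and Yp1 at 0.06 in the one before.

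Other genes of yolk uptake and storage were counted from lists of their functions. Of 27 listed genes of endocytosis and yolk uptake 19 were on the array by name. In wild-type embryos, where 2.48% of all genes were called lower, 2 of 18 tested fell, Sec15 of the exocyst (-1.73, limma adjusted p = 0.0203) and Vps45 of endosome fusion (-1.22, limma adjusted p = 0.0409), with a list median of -0.33 against 0.01 for all genes. In unfertilized eggs 3 of 19 fell, where 10% of all genes were called lower, and with so few genes that count is near the share for all genes. They were Rbsn-5 (-0.76), which acts on early endosomes, Sec15 (-0.67) and Vps45 (-0.67), with limma adjusted p between 0.0121 and 0.0356. limma called 0 of 19 in smg relative to oocytes (0 at an unadjusted p under 0.05, list median -0.06), where 0.0654% of all genes were called lower. Between the genotypes it called 0 of 18 (2 at an unadjusted p under 0.05, list median 0.41), where 0.190% of all genes were called higher in smg. At such shares a count of 0 says little.

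The receptors most closely related to yl on the array were the lipophorin receptor genes LpR1 and LpR2, 2 of 6 listed genes of the LDL receptor family. LpR2 was at -0.93 in wild-type embryos (limma adjusted p = 0.232) and 0.42 in smg, where it did not pass either, and -0.65 in unfertilized eggs, where it fell (limma adjusted p = 0.0261). Its difference between smg and wild-type embryos was 1.35 (limma adjusted p = 0.336), and that of LpR1 was 0.92 (limma adjusted p = 0.438). Neither passed the test there, and both had an unadjusted p under 0.05.

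The calls in the next lists stand beside 2.48% of all genes called lower in wild-type embryos, 10% in unfertilized eggs and 0.0654% in smg against oocytes. In smg against wild-type embryos 0.190% of all genes were called higher. At these 2 shares in smg a count of 0 says little. Counts of 1 to 3 in lists of 7 to 10 genes say little against the 10% in unfertilized eggs. Of 8 genes for acidification and proteolysis of yolk granules on the array, Vha55, a subunit of the vacuolar proton pump, fell in wild-type embryos (-1.66, limma adjusted p = 0.0240), and Vha55 (-1.12) and Vha44 (-1.36) fell in unfertilized eggs. None was called in smg against oocytes or against wild-type embryos (0 and 1 at an unadjusted p under 0.05 by limma). Of 10 genes of lipid loading and lipid droplets, Jabba, which anchors histones on lipid droplets, and SREBP, a regulator of lipid synthesis, fell in wild-type embryos (-3.73 and -1.60). In unfertilized eggs Jabba (-2.83), the droplet coat gene Lsd-2 (-1.91) and SREBP (-1.27) fell. Jabba was the 1 member of this list called in smg against wild-type embryos, higher by 3.96 (limma adjusted p = 0.0278). Among 7 genes of hormonal and sex-specific control of yolk synthesis, the splicing factor gene tra2 fell in wild-type embryos (-1.36) and in unfertilized eggs (-0.85). limma called 0 in smg against oocytes or against wild-type embryos (1 and 0 at an unadjusted p under 0.05). The 1 was tra2, which was also low in smg, at -1.67 (limma adjusted p = 0.0745). Its difference between smg and wild-type embryos was -0.31 (limma adjusted p = 0.931).

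Of 28 listed eggshell and follicle cell genes only pip, transcribed in ventral follicle cells, and fs(1)N were among the named spots. fs(1)N encodes an eggshell protein that the oocyte itself secretes, so it does not mark follicle cells. It was at -1.17 in wild-type embryos (limma adjusted p = 0.0638), -0.65 in smg (limma adjusted p = 0.499) and -0.87 in unfertilized eggs (limma adjusted p = 0.00305). pip was at -0.16, 0.14 and 0.23. Of 16 fat body and haemolymph genes 8 were present. limma called 0 of them in each comparison with oocytes (2, 0 and 1 at an unadjusted p under 0.05 in wild-type embryos, smg and unfertilized eggs), and their array medians ran from -0.53 to 0.20 in wild-type embryos, from -0.63 to 0.26 in smg and from -0.19 to 0.09 in unfertilized eggs. Of all genes 2.48%, 0.0654% and 10% were called lower in these groups, so a count of 0 among so few genes says little. With 1 follicle cell gene measured and ratios in place of levels, the part of follicle cell material in the oocyte reference in the fall of the yolk protein genes was not tested.

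Of 25 listed germ-line genes of the oocyte 15 were on the array. In wild-type embryos 6 of 14 tested fell (2.48% of all genes), among them exu (-3.75), which acts in mRNA localisation, and dhd (-4.12), a germ-line thioredoxin, with a list median of -1.09. In unfertilized eggs 7 of 15 fell (10% of all genes), with a median of -0.47. In smg against oocytes 1 of 15 fell (0.0654% of all genes), exu (-2.95, limma adjusted p = 0.00522), with a median of 0.23. Against wild-type embryos 2 of 14 were higher in smg (0.190% of all genes), dhd (4.62) and piwi (2.37), with a list median of 1.37 against 0.17 for all genes. The difference of yl, 2.44, lay above that median. Of 26 listed genes that the early embryo transcribes itself, 14 were on the array. In wild-type embryos 9 of 13 tested rose, with a median of 1.38 and 0.822% of all genes called higher. In unfertilized eggs 1 of 14 rose, the gap gene tll (0.73), with a median of 0.02 and 0.988% of all genes called higher. limma called 0 of them in smg against oocytes or against wild-type embryos (6 and 6 at an unadjusted p under 0.05), with medians of 0.56 and -0.83. Of all genes it called 1 of 6112 higher in smg against oocytes and 5 of 5791 lower against wild-type embryos. With so few calls over all genes, a count of 0 in this list says little.

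By correlation of their values over all 11 arrays, among 3323 genes measured on each, the genes most like yl were drpr (r = 0.98), superdeath (0.98), Jabba (0.98), SREBP (0.98) and Rpn8 (0.97). These are descriptions over arrays that share the oocyte reference and fall into groups. drpr, an engulfment receptor gene, was lower than yl in wild-type embryos, with a mean of -4.10 against -1.97. In smg only the means were close, at 0.35 against 0.47. On smg replicates 1 to 4 drpr stood at -0.88, -0.66, 2.10 and 0.86, a wider spread than that of yl (-0.16, -0.03, 1.26 and 0.83). SREBP and the proteasome subunit gene Rpn8 followed yl at similar levels, with means in wild-type embryos of -1.60 and -1.59, in smg of 0.32 and 0.68, and in unfertilized eggs of -1.27 and -1.28.

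Over the same arrays Yp1 and Yp3 correlated at r = 0.73 with each other, and each correlated with Yp2 at 0.27 and 0.29. yl correlated at 0.07 with Yp1, at -0.16 with Yp2 and at 0.19 with Yp3. The genes nearest to Yp1 were CG17292 (r = 0.85), Sas-6 (0.83), Spt (0.83), cbt (0.80) and CG7386 (0.79). Nearest to Yp2 were Gmer (0.93), Pfdn4 (0.90), ZnT86D (0.90), CCT4 (0.90) and CG12170 (0.89), and nearest to Yp3 were ND-39 (0.89), CG9752 (0.81), Acat2 (0.80), PGRP-LE (0.80) and CG7966 (0.78). The correlation does not take the level into account: Gmer stood at a mean of 0.21 in wild-type embryos, where Yp2 stood at -1.01. Of the 3324 genes measured on all 11 arrays, 1.81% were below the median gene on every one, as Yp1, Yp2 and Yp3 were.

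**Figure D4:**
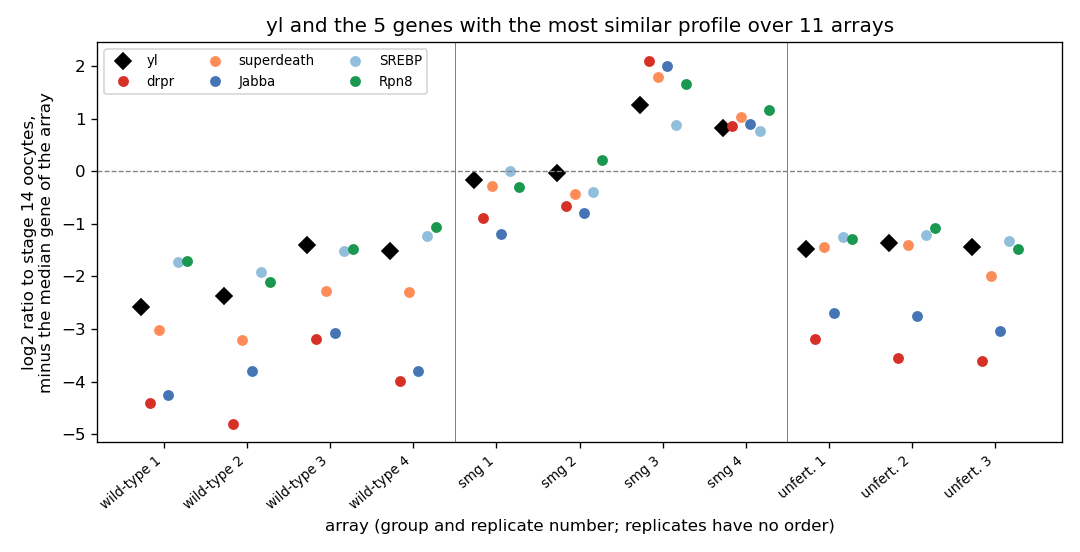
Log2 ratio to stage 14 oocytes, minus the median gene of the array, of yl (black diamonds) and the 5 genes whose values correlated best with it over the 11 arrays (coloured circles), 1 column per array and groups parted by lines. All 6 genes are below -1 on the wild-type arrays; on the smg arrays yl runs from -0.16 to 1.26.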

How the data were processed

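The authors deposited normalized log2 ratios, 1 for each spot of each array. Per the series' design text, the authors quantified images with QuantArray 3 and formed ratios in GeneTraffic Duo 3.2 with rank-invariant LOWESS within arrays. Neither background correction nor spot filters are stated, and base 2 was inferred from the values (lowest -11.92). Channel intensities were not used here, so detection was not judged.

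Of 27648 spots 15116 carried a single gene name. Spots of a gene were averaged, which gave 6793 genes (6692 matched to the reference annotation), and the array's median over genes was subtracted. Testing required values on 3 of 4 arrays in a 2 to 3 h group and on 2 of 3 unfertilized arrays. limma 3.58.1 (R 4.3.3; lmFit, eBayes) was run two-sided on the log2 values, with Benjamini-Hochberg adjustment over all genes tested and a threshold of 0.05. The 8 arrays at 2 to 3 h shared 1 model, the 3 unfertilized arrays had their own, and contrasts between embryos and unfertilized eggs used all 11. Means against 0 leave out the oocytes' own spread. The fit was tested on simulated data with normal errors independent between genes and arrays. These held no shift between slide sets and no negatively correlated arrays, so that test does not bear on how stable the calls are. Differences between 2 genes within arrays were compared by exact permutation. Alternatives changed the centring, normalization, filters, spot averaging, variance prior, arrays included and slide-set block.

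The members, the 9 gene lists and the alternatives were chosen with earlier results of these data known. By rule, at most 4 called genes per list and comparison were named, and the 5 genes most correlated with each member.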

Additional observations from a re-analysis of the deposited data

Results flagged for a closer look

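The change of yl against oocytes differed between smg and wild-type embryos by 2.44, a difference tested by limma (adjusted p = 0.0491), and it was positive between every smg and every wild-type embryo array, as for 8.81% of the 3393 genes measured on all 8. The within-array difference of yl and Yp1 was larger in smg by 2.24, and that of yl and Yp2 by 2.58 (two-sided exact permutation test, adjusted p = 0.0429 for each, and 0.0556 when permuted within the sets of slides). The 4 genes were set against each other with earlier results of these arrays known. None of these p-values is therefore independent support for the contrast. No single array of a group of 4 stood apart from the other 3 for any of the 4 genes by Dixon's ratio at its 95% critical value. Groups of 3 arrays were not tested.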

How the results depend on the processing

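In all 21 alternatives for wild-type embryos, 21 for smg and 11 for unfertilized eggs, Yp1, Yp2 and Yp3 stayed below 0 against oocytes. yl stayed higher in smg than in wild-type embryos in all 20. Several alternatives, such as the robust prior, cannot change a fitted value, so these counts are not independent support. That the yolk protein genes lie low was also known when they were chosen. The calls were less stable, and the cause was not tested. The interval of the genotype difference of Yp2, from -1.08 to 0.80, shows what 4 arrays a group resolve, and signal over background was not judged.

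Without centring, 0 genes passed limma's test in wild-type embryos, smg, smg against wild type, and both comparisons with unfertilized eggs (139, 51, 20, 24 and 17 at an unadjusted p under 0.05). Against oocytes Yp1, Yp3 and yl were then at -4.67, -3.39 and -2.97 in wild-type embryos and at -4.59, -2.93 and -0.64 in smg. yl differed by 2.33 between genotypes, and Yp2 by -0.47 (wild type) and -0.72 (smg) from unfertilized eggs. Centring on genes measured on all 11 arrays gave 15 calls in smg against oocytes, Yp1 at -0.19 and yl at 2.06 (limma adjusted p = 0.0544) between genotypes, and Yp2 at -0.029 between smg and unfertilized eggs.

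Quantile normalization gave 519 calls in wild-type embryos, 16 in smg, 56 between genotypes (Yp1 -0.36, Yp3 -0.46) and 172 between smg and unfertilized eggs (Yp2 -0.062, yl 1.80). In wild-type embryos against unfertilized eggs Yp1 was then at 0.064. Fitting all 11 arrays together left 60 calls in unfertilized eggs (yl -1.43, limma adjusted p = 0.0504), and requiring values on every array left 7 between wild-type embryos and unfertilized eggs. With at least 2 values a group, or a robust prior, yl between genotypes was unchanged at 2.44 with a limma adjusted p of 0.0623 or 0.0522.

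With genotypes permuted within the slide sets, added after seeing the data, yl minus Yp1 (2.24) and yl minus Yp2 (2.58) had an exact p of 0.0556, the smallest possible. No paired analysis was possible because replicate numbers follow the order of deposition and pair no arrays. The slide sets as a block gave 528 calls in wild-type embryos (Yp2 -1.01, limma adjusted p = 0.0397), 33 in smg and 235 between genotypes. Each genotype fitted alone gave 750 (Yp2 -1.01) and 1 (Yp3 -1.82). Without both low-median arrays there were 88 in wild-type embryos, 1 in smg (Yp3 -2.07), 0 between genotypes (872 at an unadjusted p under 0.05 by limma, yl 2.45) and 173 between smg and unfertilized eggs (yl 2.12).

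Within the earlier slides limma called 0 in smg (579 at an unadjusted p under 0.05; Yp1 -3.36, Yp3 -1.40, yl -0.099) and 0 between genotypes (172; Yp2 0.17, yl 2.38). Within the later slides it called 1593 (Yp2 -1.4998, yl 1.05) and 544 (Yp1 -0.17). yl minus Yp1 and yl minus Yp2 differed between genotypes by 1.81 and 2.21 in the earlier and by 2.68 and 2.95 in the later slides. With the sign of smg replicate 3 turned, limma called 0 in smg (492; Yp1 -1.97, Yp3 -0.94, yl -0.16), 2 between genotypes (Yp2 0.46, yl 1.81) and 0 between smg and unfertilized eggs (231; Yp1 0.999, Yp3 0.63), and those 2 within-array differences were 0.11 and 1.35.

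Leaving out 1 array at a time gave 39 (without wild-type embryo replicate 2) to 502 (without smg replicate 3) calls in wild-type embryos, with yl from -2.16 to -1.76. In smg it gave 1 (without smg replicate 2) to 36 (without smg replicate 3), with Yp3 from -2.07 to -1.52. In unfertilized eggs it gave 490 (without replicate 1) to 686. Between genotypes it gave 0 (without wild-type embryo replicate 1, 2 or 4; 380 to 515 at an unadjusted p under 0.05 by limma) to 209 (without smg replicate 1), with Yp2 from -0.39 to 0.15 and yl from 2.18 to 2.65. Yp2 turned positive there without wild-type embryo replicate 1 (0.15) and without smg replicate 4 (0.078). Calls ran from 14 to 32 between wild-type embryos and unfertilized eggs (32 without smg replicate 3) and from 0 to 265 between smg and unfertilized eggs (265 without smg replicate 1), with yl from 1.64 to 2.12 and Yp3 from -0.56 to 0.055, positive without smg replicate 4. The within-array differences ran from 1.89 to 2.48 for Yp1, from 2.09 to 2.96 for Yp2 and from 1.45 to 2.34 for Yp3.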
